A study of Saccharomyces cerevisiae with 23 samples.

Results

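The mitochondrially encoded respiratory genes measured here are COX1 (Q0045), COX3 (Q0275), COB (Q0105), ATP6 (Q0085), ATP8 (Q0080) and OLI1 (Q0130). They were taken by symbol from the scanner files, where their systematic names start with Q0, and they are 6 of the 6256 genes on the array. Budding yeast keeps a small genome in its mitochondria that encodes core membrane subunits of the respiratory chain, while the other subunits of the same complexes are encoded in the nucleus and imported. COX1 and COX3 encode catalytic-core subunits of cytochrome c oxidase (complex IV), and COB encodes cytochrome b of complex III. ATP6, ATP8 and OLI1 (also called ATP9) encode membrane-sector subunits of the ATP synthase. A dedicated RNA polymerase, encoded in the nucleus, transcribes these genes, and nuclear-encoded factors process, stabilise and translate each transcript.

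Total RNA of Saccharomyces cerevisiae was measured on 2-colour Agilent arrays in 17 biological samples. All samples came from the haploid strain BY4741a carrying pdr5Δ, which removes a drug efflux pump, and all grew in SC medium with 2% glucose, 0.25 mM EDTA and 0.1% DMSO at 30 °C. The groups were statin with CuSO4 (3 samples), statin with ZnSO4 (2 samples, replicates 2 and 3; replicate 1 was not analysed here), statin (3), CuSO4 (3), ZnSO4 (3) and untreated (3). The doses were 5 µg/mL statin, an inhibitor of HMG-CoA reductase that the labels do not name, 1 mM CuSO4 and 2 mM ZnSO4. Cultures with statin had been pregrown with it from an OD600 of 0.09, against 0.01 without, and were collected at an OD600 near 0.4, against 0.8 without. The statin and these densities cannot be told apart. Nothing in the labels says more of how separate the cultures of 1 group were, so the tests measure the spread between these samples.

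Each array paired a Cy3 sample with a Cy5 reference pooled from all 6 conditions, and every value below is a log2 ratio of sample over reference unless a signal is named. Replicates with the same number form a set. The arrays of each set share 1 scan date in the file headers, which was taken here as 1 slide. The text calls these replicate sets 1, 2 and 3. Sets 1 and 2 had 98.4 to 98.8% and 95.7 to 97.4% of spots well above background, and set 3 had 77.1 to 89.9%. PDR5 was well above background on 0 of 23 arrays. Of the 4 marker genes that BY4741 is known to have lost, HIS3 was above background on 0 arrays, LEU2 on 2, URA3 on 6 and MET17 on 15, all at percentile 11.8 of an array or below. The 5 a-cell genes were above background on 21 to 23 arrays, and the 4 genes known as alpha-cell genes on 14 to 23, so the probes do not separate the mating types. Tests covered the 5606 genes whose probe stood well above background throughout at least 1 group.

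All 6 respiratory genes were tested, but not all rested on the same signal. COB, ATP8 and OLI1 were well above background on 23 of 23 arrays, and ATP6 was on every array except 1 of set 3. COX1 was above background on 1 of the 8 arrays of set 3 and passed only through the CuSO4 group. COX3 was above background on 4 of those 8 arrays and passed through the statin with CuSO4 and the CuSO4 groups. COX1 gave 43.7 to 244 units of sample signal, which placed it among the dimmest probes (percentiles 10.2 to 16.1 of an array). COX3 lay at percentiles 8.79 to 16.8. In set 1, COX3 lay at 8.79 to 11.1 and COX1 at 10.2 to 13.7, while the lost marker genes reached 11.8 over all arrays. MET17, a lost gene, was well above background on 15 arrays, so this flag alone does not secure the COX1 and COX3 values of set 1. OLI1 gave 19000 to 91200 units, which placed it among the brightest. A probe's brightness also depends on its sequence, so these signals do not rank the transcripts. Yeast mitochondrial mRNAs are known to lack the poly(A) tails on which this kind of labelling primes, and the part this plays in the signals was not tested, because none of the 6 listed RNAs without such tails had a probe here (0 of 6).

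For COX1, COX3, COB, ATP8 and OLI1 the replicate set took a larger share of the sum of squares than the treatment group, and for ATP6 the group took slightly more. OLI1, the proteolipid that forms the rotating ring of the ATP synthase, had ratios of 1.44, -0.25 and -0.08 in statin with CuSO4 (replicates 1, 2 and 3), 0.54 and 0.10 in statin with ZnSO4 (replicates 2 and 3), and 1.12, -0.90 and -0.22 in statin. It had 0.64, -1.22 and -0.92 in CuSO4, 0.91, -0.89 and -0.66 in ZnSO4, and 0.14, -0.65 and -0.88 in untreated cells. In every group that has a replicate 1, that sample was the highest, and all 6 groups overlapped. ATP8, a small subunit that anchors the stator, had 0.87, 0.06 and 0.25 in statin with CuSO4, 0.88 and 0.42 in statin with ZnSO4, and 1.74, 0.11 and 0.46 in statin. ATP8 had 0.84, -0.29 and -0.47 in CuSO4, 0.71, -0.60 and -0.32 in ZnSO4, and 0.24, -0.11 and -0.41 in untreated cells. All 8 samples with statin were above 0, while samples without statin lay on both sides.

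ATP6, the subunit that conducts protons past the ring, had 0.52, -0.22 and -0.19 in statin with CuSO4, 0.33 and 0.09 in statin with ZnSO4, and 1.04, -0.08 and 0.53 in statin. ATP6 had 0.42, -0.46 and -0.59 in CuSO4, 0.21, -0.85 and -0.36 in ZnSO4, and -0.06, -0.42 and -0.58 in untreated cells. Only replicate 1 of the statin, CuSO4 and statin with CuSO4 groups and replicate 3 of the statin group exceeded 0.4. COB averaged -0.15 ± 0.40 in statin with CuSO4, 0.10 ± 0.12 in statin with ZnSO4 (n = 2), 0.39 ± 0.72 in statin, 0.01 ± 0.89 in CuSO4, 0.29 ± 0.90 in ZnSO4 and 0.05 ± 0.63 in untreated cells (SD, n = 3 where not given). COX1 averaged -0.50 ± 0.28, -0.38 ± 0.29 (n = 2) and -0.56 ± 0.54 in statin with CuSO4, statin with ZnSO4 and statin, and -0.16 ± 0.42, -0.14 ± 0.39 and -0.28 ± 0.19 in CuSO4, ZnSO4 and untreated cells. COX3 averaged -0.36 ± 0.41, -0.41 ± 0.09 (n = 2) and -0.53 ± 0.49 in the same statin groups, and -0.51 ± 0.41, -0.06 ± 0.32 and -0.24 ± 0.33 in CuSO4, ZnSO4 and untreated cells. For these 3 genes every group overlapped the untreated samples.

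**Figure D1:**
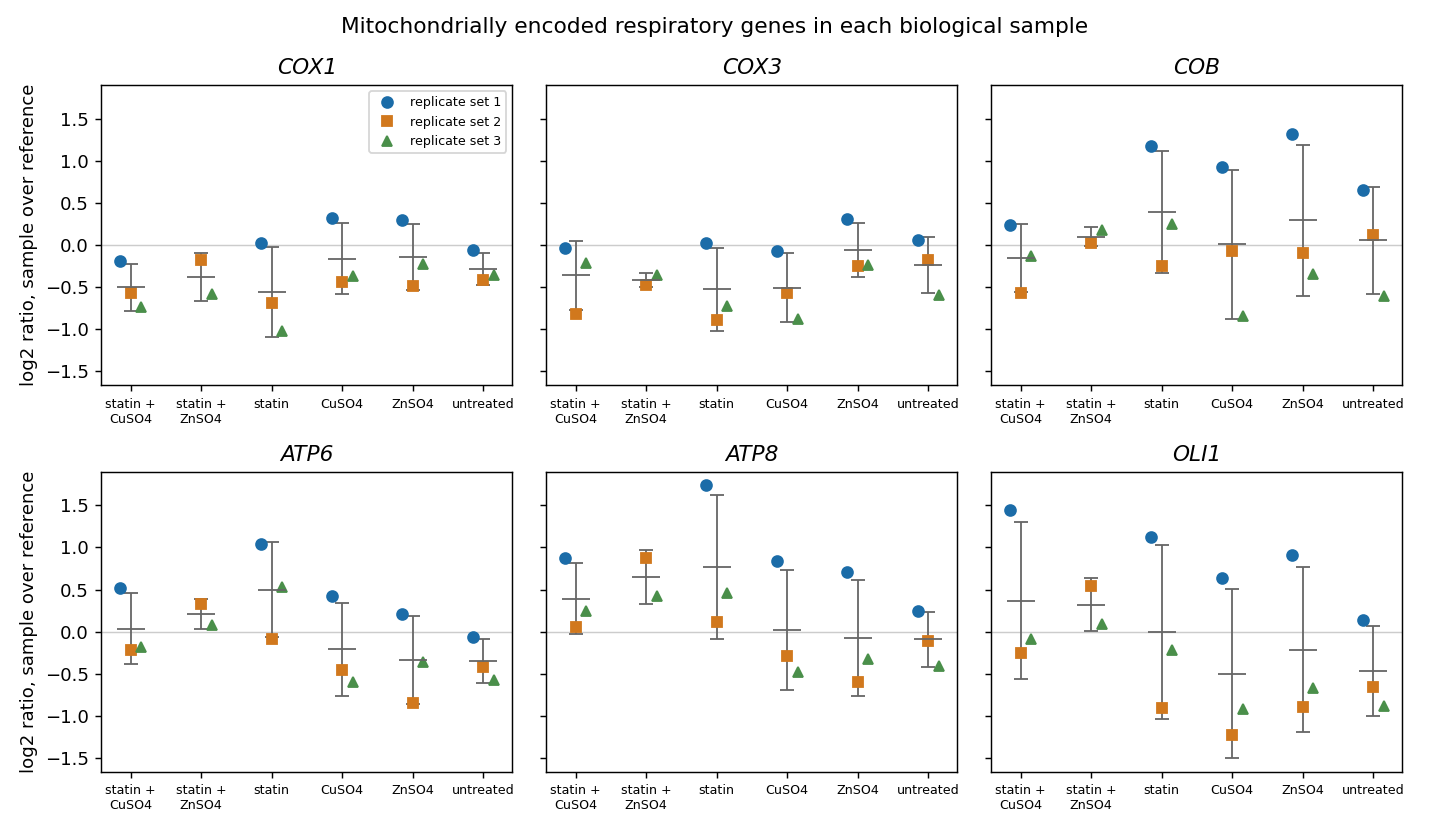
Log2 ratio of sample over reference (vertical axis) for the 6 respiratory genes in each of the 6 groups (horizontal axis); coloured symbols are biological samples by replicate set, and grey bars are the group mean ± SD. The circles of replicate set 1 lie at or near the top of nearly every group, and OLI1 spans -1.22 to 1.44.

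The replicate set took 47.7 to 74.3% of the sum of squares of the 6 genes over the samples, with a median of 60.2%, against a median of 9.38% over all genes. The treatment group took 49.8% for ATP6 (against 47.7% for the set), 43.7% for ATP8 (against 55.9%) and 13.3 to 30.5% for the other 4 genes (against 57.4 to 74.3%). Each share was taken after the other term had been fitted, and because statin with ZnSO4 has no sample in set 1 the shares need not add up to the whole. OLI1 stood at percentile 99.7 and ATP6, the lowest of the 6, at percentile 94.9 of the tested genes. A moderated F test of the set term in limma called 6 of 6 (adjusted p 0.00144 to 0.00919), against 23.5% of all genes. OLI1 averaged 0.85 in set 1, -0.56 in set 2 and -0.44 in set 3, and COB averaged 0.86, -0.14 and -0.25. Both colours moved between the sets. Relative to the median probe of an array, the OLI1 sample signal averaged 5.41, 5.06 and 4.77 on the log2 scale in sets 1 to 3, while the reference signal averaged 4.51, 5.45 and 5.19. For COB the sample signal averaged -1.34, -0.24 and -0.62, and the reference signal averaged -2.26, -0.07 and -0.37. The reference thus differed between the sets by more than the samples did for both genes. Pairs of arrays of 1 biological sample differed in the OLI1 ratio by at most 0.10. Whether the sets shared 1 preparation of the reference is not given in the sources used here.

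**Figure D2:**
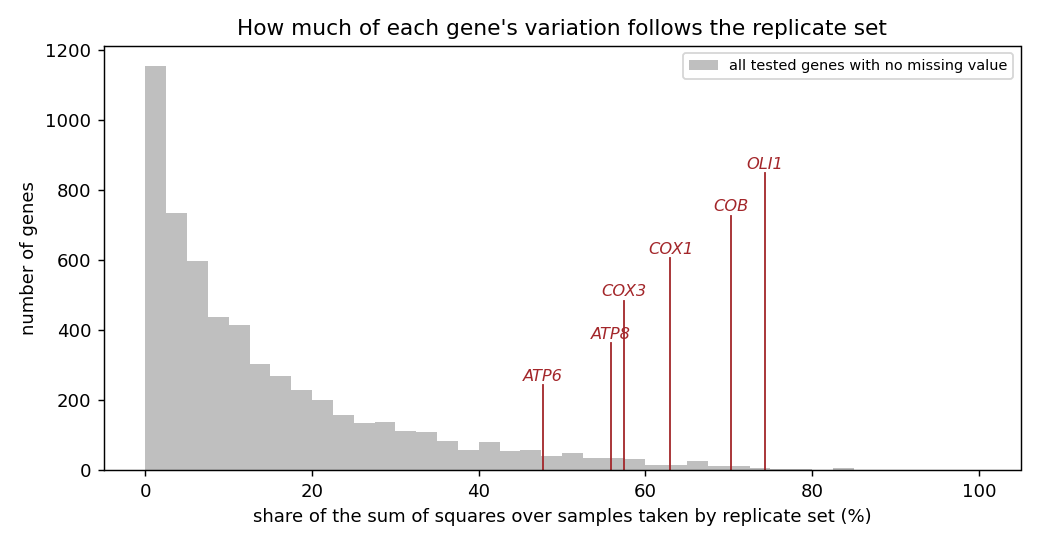
Share of each gene's sum of squares over the samples that follows the replicate set (horizontal axis, %), as a histogram of all tested genes (vertical axis, number of genes), with the 6 respiratory genes as labelled lines whose heights carry no value. The respiratory genes lie between 47.7 and 74.3%, far right of the median of 9.38%.

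The main fit compared the 6 groups without regard to set, and it called none of the 6 genes. The moderated F test over all 6 groups called 0 of 6 (limma; 0 at an unadjusted p under 0.05), against 68.4% of all genes. Each of the 9 contrasts also called 0 of 6 genes. The background shares in the same fit were 36.8% for statin against untreated, 34.6% for CuSO4 and 16.6% for ZnSO4 against untreated. They were 16.7% and 22.0% for statin with CuSO4 and statin with ZnSO4 against statin, 44.3% and 28.6% for statin with CuSO4 against CuSO4 and statin with ZnSO4 against ZnSO4, and 18.4% and 1.03% for the interactions of statin with CuSO4 and with ZnSO4. At an unadjusted p under 0.05 there was 1 gene in statin against untreated (ATP6) and 0 in the other 8 contrasts. The intervals were wide: the 95% interval of the OLI1 change with statin ran from -0.85 to 1.77.

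Because each replicate set holds several groups, the same contrasts were also fitted with the set as a block as one of the alternatives tried. With the block, the residual SD of OLI1 was 0.28, against 0.88 without, and 4 of 6 genes passed the F test (limma, adjusted p 0.000929 for OLI1, 0.000939 for ATP6, 0.0016 for ATP8 and 0.0412 for COX1), against 79.6% of all genes. The calls below are therefore those of the alternative and are absent from the main fit. COX1 passed the filter only through the CuSO4 group, so its F call is given as a description and supports no difference. That call held in 8 of 17 blocked fits that left out 1 sample. It was lost in the blocked F test with median centring (limma, adjusted p = 0.0698) and without set 3 (adjusted p = 0.14).

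Of the 3 ATP synthase genes, ATP6 and ATP8 were higher with statin in the blocked fit, and OLI1 did not pass. ATP6 was 0.85 ± 0.16 higher on the log2 scale in statin than in untreated cells (SE; limma with the block, adjusted p = 0.00092), against an adjusted p of 0.0535 without it. The ATP6 differences within sets 1, 2 and 3 were 1.11, 0.34 and 1.11. ATP8 was 0.86 ± 0.20 higher (adjusted p = 0.00345 with the block, 0.13 without), with differences of 1.5, 0.22 and 0.87 within the sets. Without set 3 the ATP8 call was lost (0.86, adjusted p = 0.0541 with the block). The 2 genes called of 6 compare with 47.1% of all genes called in the same blocked contrast, so the share is below the background. OLI1 differed by 0.46 ± 0.20 (adjusted p = 0.0771), COB by 0.34 ± 0.26 (adjusted p = 0.295), COX1 by -0.28 ± 0.14 (adjusted p = 0.108) and COX3 by -0.29 ± 0.16 (adjusted p = 0.144), and none of these passed.

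In cells given ZnSO4, statin went with higher ATP8 (1.06 ± 0.23, adjusted p = 0.00362 with the block), OLI1 (1.04 ± 0.23, adjusted p = 0.00446) and ATP6 (0.79 ± 0.18, adjusted p = 0.0055), which is 3 of 6 genes against 37.0% of all genes. Without the block the adjusted p values were 0.278, 0.591 and 0.28. Each of these 3 calls was lost when replicate 2 of statin with ZnSO4 was left out of the blocked fit (adjusted p = 0.0597, 0.0792 and 0.0808), which leaves 1 sample in that group. In cells given CuSO4, statin went with higher OLI1 (0.87 ± 0.20, adjusted p = 0.00322) and lower COX1 (-0.34 ± 0.14, adjusted p = 0.0497), which is 2 of 6 against 54.5% of all genes. Without the block these gave 0.266 and 0.323. The OLI1 change was 0.39 with median centring in place of loess (adjusted p = 0.119 with the block), and COX1 lost its call in 7 of 17 blocked fits that left out 1 sample, with median centring (adjusted p = 0.088) and without set 3 (adjusted p = 0.0975). COX1 passed the filter only through the CuSO4 group, which is the higher group in this contrast, and its set 3 array in statin with CuSO4 was not well above background, so the COX1 call is given as a description and supports no difference. ATP6 and ATP8 differed by 0.25 ± 0.16 and 0.37 ± 0.20 in CuSO4-treated cells and did not pass.

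**Figure D3:**
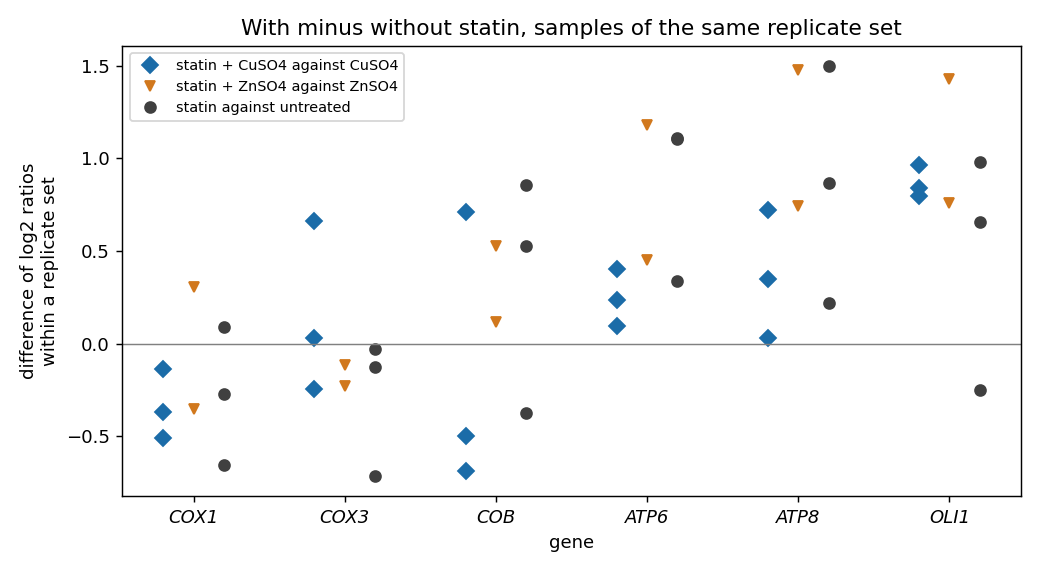
Difference of log2 ratios, with minus without statin, between samples of the same replicate set (vertical axis) for each gene (horizontal axis); diamonds are pairs given CuSO4, triangles pairs given ZnSO4, and circles pairs without added metal. All 8 differences are above 0 for ATP6 and ATP8, and 6 of 8 are below 0 for COX1 and COX3.

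Across the 8 pairs of samples that share a set and differ in statin, ATP6 was higher with statin in 8 (0.09 to 1.18), ATP8 in 8 (0.03 to 1.5) and OLI1 in 7 (-0.25 to 1.43). COB was higher in 5 of 8, and COX1 and COX3 were lower in 6 of 8. Of the 5600 genes measured in every pair, 16.9% were higher in all 8 and 16.3% were lower in all 8. Set 3, where COX1 and COX3 were near background, gave 3 of these pairs. COX2 encodes the remaining mitochondrial subunit of the complex IV core. It did not pass the filter and was not well above background on any array of set 3. COX2 was higher with statin in 7 of 8 pairs, the opposite direction to COX1 and COX3. Neither COX1 nor COX3 was called for statin against untreated, in the main fit or with the block. ATP8, ATP6 and COX1 lie next to each other on mitochondrial DNA and are known to be transcribed as 1 unit that is later cut.

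The metals gave fewer differences. OLI1 was 0.82 ± 0.23 higher in statin with ZnSO4 than in statin cells with the block (adjusted p = 0.018, against 0.79 without), the only gene called of 6, against 28.1% of all genes. Its differences within sets 2 and 3 were 1.44 and 0.32, and the call was lost without replicate 2 of the statin group and in the sample channel alone. It was also lost without replicate 2 of statin with ZnSO4 and without set 3, which each leave 1 sample in that group. In statin with CuSO4 against statin, 0 of 6 passed with the block, against 24.6% of all genes, and ATP6 came closest (-0.46 ± 0.16, adjusted p = 0.0523), being lower in 3 of 3 sets. CuSO4 and ZnSO4 against untreated called 0 of 6 each with the block, against 44.8% and 24.3% of all genes. There the changes ran from -0.27 (COX3) to 0.14 (ATP6) with CuSO4 and from 0.02 (ATP6) to 0.25 (OLI1) with ZnSO4. No interaction passed with the block (0 of 6 each, against 26.0% and 1.84% of all genes), and the largest in size were -0.60 ± 0.23 for ATP6 with CuSO4 (adjusted p = 0.0671) and 0.58 ± 0.31 for OLI1 with ZnSO4 (adjusted p = 0.458).

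**Figure D4:**
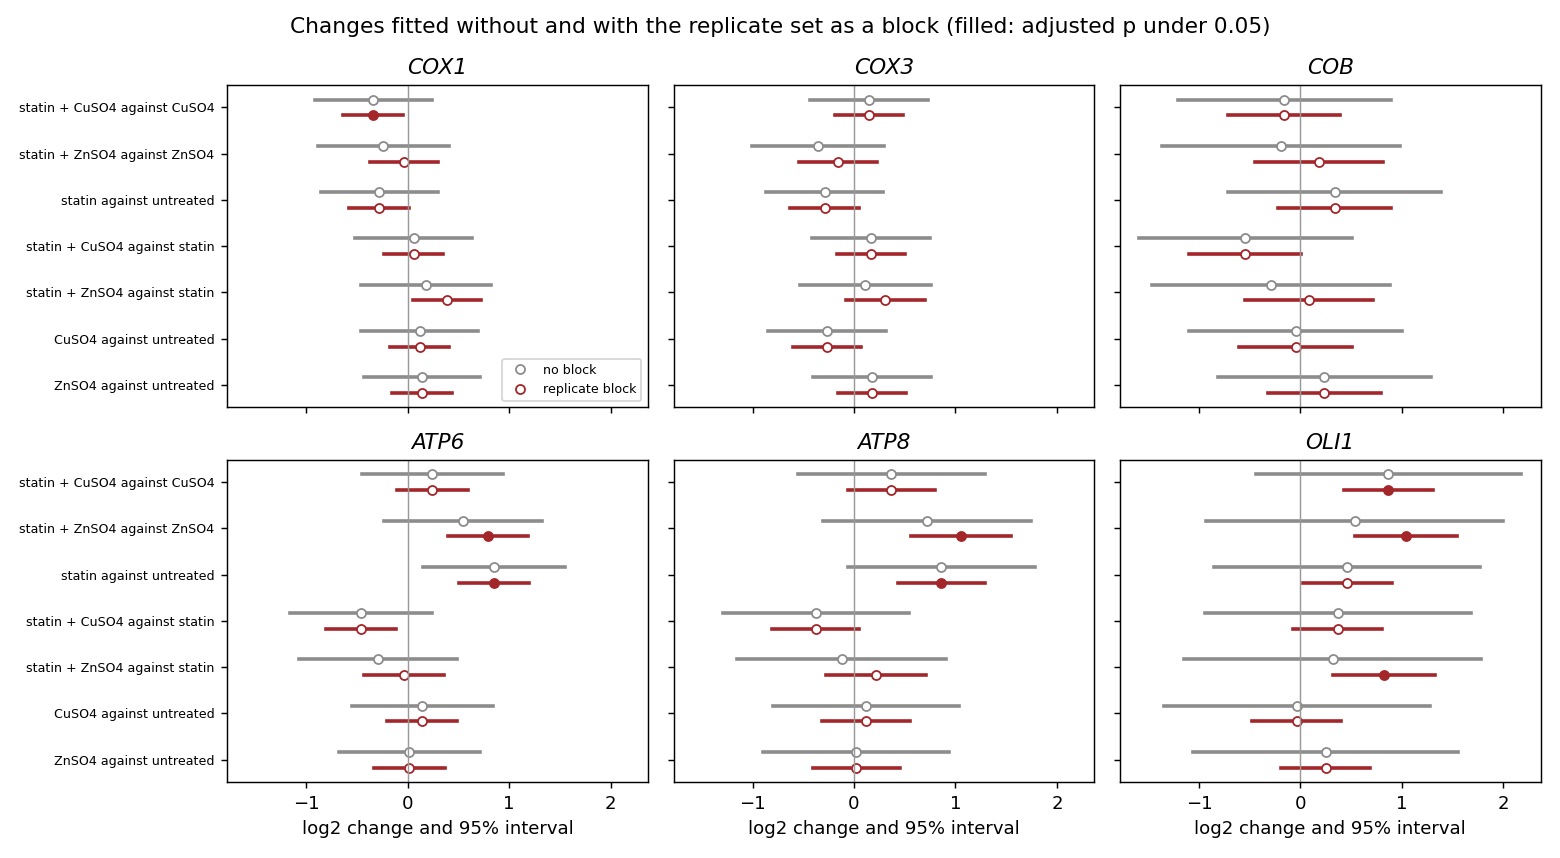
Log2 change with its 95% interval (horizontal axis) for 7 contrasts (vertical axis) in the 6 respiratory genes, fitted without a block (grey) and with the replicate set as a block (red); filled points have an adjusted p under 0.05. The grey points are all open, and the red intervals are narrower, as for ATP6 with statin (0.50 to 1.2 with the block, 0.15 to 1.55 without).

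ATP6 and ATP8 followed each other most closely of all pairs among the 6 (r = 0.965 over 17 samples, and 0.951 after the set means were removed). COX1 was closest to COX3 (r = 0.693, and 0.278 after removal), and COB was also closest to COX3 (r = 0.796, and 0.492). OLI1 was closest to ATP8 (r = 0.894, and 0.808). These are descriptions over samples that share slides and a reference. Outside the mitochondrial genome, the genes most like the mean of the 6 were YCX1 (r = 0.899), PGD1 (r = 0.892), YGL088W (r = 0.889), YMR193C-A (r = 0.886) and PCL8 (r = 0.878). After the set means were removed, YGL088W and YMR193C-A still had r = 0.887 and 0.843, and PGD1 had 0.59.

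The array has 17 other probes for mitochondrial genes, of which 6 passed the filter (Q0017, AI1, AI2, AI5_ALPHA, AI5_BETA and Q0297). The 11 that did not were Q0010, AI3, AI4, BI2, BI3, BI4, VAR1, SCEI, Q0182, COX2 and Q0255. COX2 and VAR1, which encodes a protein of the mitochondrial ribosome, were above background on 15 of the 15 arrays of sets 1 and 2 and on none of set 3. COX2 ratios ran from -0.57 to 0.59 and VAR1 ratios from -0.82 to 0.25. Of the 6 tested, the main fit called 1 for CuSO4 against untreated (against 34.6% of all genes), 2 for statin with CuSO4 against CuSO4 (44.3%), 1 for the interaction of statin and CuSO4 (18.4%) and 0 in the other 6 contrasts. AI5_ALPHA, an open reading frame that continues into a COX1 intron, rose with CuSO4 (0.63 ± 0.23, adjusted p = 0.0492 in the main fit) and fell with statin in cells given CuSO4 (-0.71 ± 0.23, adjusted p = 0.0223). Q0017 rose in that contrast (0.26 ± 0.10, adjusted p = 0.0457). With ZnSO4 against untreated, AI5_ALPHA was 0.68 ± 0.23 higher. That change did not pass in the main fit (limma, adjusted p = 0.0608) and passed with the block (adjusted p = 0.0332). AI1 to AI5_ALPHA share the annotated start of COX1, and BI2 to BI4 that of COB, so which transcript each probe reads cannot be told apart. A change in the share of cells with mitochondrial DNA and a change in mitochondrial RNA per cell cannot be told apart in these cultures either.

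The nuclear-encoded subunits of the same complexes gave another picture in the main fit. Of 32 listed subunits, 19 fell and 0 rose in statin against untreated (median -0.46, against -0.01 over all genes), where 36.8% of all genes were called in either direction. By complex, 8 of 9 listed subunits of complex III, 8 of 9 of complex IV and 3 of 14 of the ATP synthase fell. The ATP synthase share of 21.4% is below the 36.8% of all genes called in either direction, of which 1056 of 5606 genes fell. With the block, 7 of the 14 ATP synthase subunits fell and 0 rose (50%), against 47.1% of all genes called, so the share is not below the background there. In statin with CuSO4 against statin, 26 rose and 0 fell (median 0.91), against 16.7% of all genes called. With CuSO4 against untreated, 24 rose and 0 fell, against 34.6% called. In statin with ZnSO4 against statin, 21 rose and 0 fell, against 22.0% called. With statin in cells given CuSO4, 2 of the 32 rose and 1 fell, against 44.3% of all genes called. With statin in cells given ZnSO4, 3 rose and 0 fell, against 28.6%. CYT1, the cytochrome c1 of complex III, fell by 0.91 with statin (SE 0.15, adjusted p = 0.000304) and was 2.48 ± 0.15 higher in statin with CuSO4 than in statin cells (adjusted p = 1.62e-08). COX6, a nuclear subunit of complex IV, was 0.86 lower with statin by the same test (-0.86 ± 0.17, adjusted p = 0.000869). Whether the nuclear and mitochondrial lists differ from each other was not tested.

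Among 39 listed nuclear factors for mitochondrial DNA, RNA and translation, 1 rose and 6 fell with statin in the main fit, a share of 17.9% that is below the 36.8% of all genes called. The 1 that rose was NCA3, known for its part in the expression of ATP6 and ATP8: it was 2.28 ± 0.36 higher in statin than in untreated cells (adjusted p = 0.000154), 1.44 ± 0.36 higher with statin in cells given CuSO4 (adjusted p = 0.00451) and 1.94 ± 0.40 higher in cells given ZnSO4 (adjusted p = 0.00247). NCA2, its partner gene, changed by -0.06 ± 0.12 with statin (adjusted p = 0.704). CBP1, which stabilises the COB transcript, fell with statin (-0.44 ± 0.08, adjusted p = 0.000697), as did CBP6, which acts in cytochrome b synthesis (-0.68 ± 0.12, adjusted p = 0.000649), and PET122, an activator of COX3 translation (-0.37 ± 0.10, adjusted p = 0.00644). Most listed factors of these kinds were not called: of 12 translation activators 2 fell and 0 rose, and of 16 RNA processing factors 2 fell and 1 rose. RPO41, the mitochondrial RNA polymerase, changed by -0.09 ± 0.16 (adjusted p = 0.706), and its partner MTF1 by -0.21 ± 0.12 (adjusted p = 0.181). For COX1, PET309 changed by -0.11 ± 0.09 (adjusted p = 0.36) and MSS51 by -0.18 ± 0.12 (adjusted p = 0.245). The relation of these factors to the 6 transcripts was not tested.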

How the data were processed

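Spot values were extracted by the authors; the submitters' processing notes name Agilent Feature Extraction 10.5.1.1 for this. The deposited scanner files give median intensity and background intensity per spot and channel, per the file headers. The authors also deposited values per array as log10 ratios, which equal the scanner's log10 ratio with the sign turned (largest difference 5e-06). Median intensities were corrected with normexp (offset 50) and normalized by loess within each array. All ratios are given as log2 of sample over reference. The 2 spots of a probe and arrays of 1 sample were averaged (23 arrays, 17 samples). Groups came from the labels. The lowest correlation between arrays was -0.56; since the labels give the dye of each channel, the direction stands. No spot was saturated (0), and 6 values of tested genes were missing.

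One limma fit (limma 3.58.1, R 4.3.3, and version 1.17.8 of data.table) took the 6 groups without a block, with 11 residual degrees of freedom, two-sided, with Benjamini-Hochberg adjustment over 5606 genes at 0.05. A value after ± is the standard error unless SD is written. The series' design text speaks of replicate sets, and the file headers give the arrays of each set 1 scan date, taken here as 1 slide. The set as a block (9 residual degrees of freedom) is therefore given beside the results. The fit was tested on simulated data. The alternatives, of 10 kinds, were the scanner program's ratios, median centring, no background subtraction, no filter, a stricter filter, 1 array per sample, the replicate block, array weights, only the groups compared, and each sample left out. Added after seeing the data were the fit without set 3, the sample channel alone, and the block combined with other settings and with each sample left out.

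The members and lists were chosen with earlier results of these data known. Genes named beside the members were the other Q0 probes, mitochondrial transcription genes, factors dedicated to 1 transcript, at most the 2 called genes of largest change per list and contrast, and the 5 genes most like the members' mean. Gene symbols came from the files and RefSeq's R64 genes (5756 of 6256 matched); the files use build sacCer1, so no coordinates are given, and no sequences were used here.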

Additional observations from a re-analysis of the deposited data

Results flagged for a closer look

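None of the 6 respiratory genes had an interaction of statin with either metal that passed the test without a block. Among the genes named beside them, the effect of CuSO4 differed with and without statin by an interaction term (limma, adjusted p under 0.05). AI5_ALPHA had an interaction of -1.08 on the log2 scale, so CuSO4 went with a lower value in the presence of statin than in its absence. For the nuclear subunits of complex III the interaction was 1.101 for RIP1, 1.095 for QCR6, 0.98 for QCR7 and 0.81 for CYT1. For those of complex IV it was 0.77 for COX5A, 0.71 for COX6, 0.67 for COX7 and 0.62 for COX9. It was 0.48 for ATP7 of the ATP synthase and 0.44 for CBP2, which acts in splicing of a COB intron. The effect of ZnSO4 differed in the same way for QCR6 (1.03) and RIP1 (1.03). The AI5_ALPHA interaction of statin and ZnSO4 was -0.85 and did not pass (limma, adjusted p = 0.392). In all, the CuSO4 interaction was called for 7 of 9 listed complex III subunits and 4 of 9 of complex IV. It was called for 1 of 14 listed ATP synthase subunits and 1 of 39 listed nuclear factors, against 18.4% of all genes. The ZnSO4 interaction was called for 4 of 9 complex III subunits and 0 of the other listed subunits, against 1.03% of all genes.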

How the results depend on the processing

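The count of respiratory genes called was 0 of 6 in the F test and in every contrast in the fit without a block, and it did not stay there under every alternative. The replicate block called 4 genes in the F test, 2 for statin against untreated, 2 for statin + CuSO4 against CuSO4, 3 for statin + ZnSO4 against ZnSO4 and 1 for statin + ZnSO4 against statin. Over all genes the same 5 tests called 79.6%, 47.1%, 54.5%, 37.0% and 28.1%. Blocked fits with the scanner program's ratios gave the same 5 counts (4, 2, 2, 3 and 1), those with array weights 5, 3, 2, 3 and 1 with 2 more for the interaction of statin and CuSO4, and those with the sample channel alone 4, 2, 2, 3 and 0. Of 5606 genes, the blocked scanner ratios called 4402, 2613, 2958, 2085 and 1579. Blocked array weights called 5013, 2863, 3530, 2564 and 1711, and 2129 for that interaction. The blocked sample channel called 4224, 2391, 2797, 1917 and 1473. With median centring the blocked counts were 3, 2, 0, 3 and 1 with 1 more for statin + CuSO4 against statin. Over all 5606 genes the counts with median centring were 4465, 2552, 3054, 1920 and 1479, and 1328 for statin + CuSO4 against statin. Without set 3 the blocked fit called 1 gene for statin against untreated and 1 for statin + CuSO4 against CuSO4. Of all genes it called 1619 and 2240 in those contrasts. Leaving out set 3 leaves 1 sample in statin with ZnSO4, so counts that involve that group are not given for it. Without a block, statin against untreated called 1 gene with array weights (COX3), 1 with only the groups compared (ATP6), 1 in the sample channel alone (ATP6) and 0 to 1 with each sample left out (ATP6). Over all 5606 genes these settings called 2761, 2151, 1432 and 1649 to 2222. The sample channel alone also called 1 gene in the F test and 1 for statin + ZnSO4 against ZnSO4, against 2908 and 954 of all 5606 genes. In the blocked fits with each sample left out, ATP6 and ATP8 for statin against untreated passed in 17 of 17, with adjusted p from 0.000426 to 0.0072 and from 0.00153 to 0.0247. OLI1 for statin + CuSO4 against CuSO4 also passed in 17 of 17. ATP8 for statin against untreated missed the threshold in the blocked fit without set 3 (adjusted p = 0.0541). The cause of these differences was not tested, except that the block removes the set means by construction.

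The replicate numbers were checked as pairs. Same-numbered samples of different groups had deviations from their group means that correlated at -0.09 to 0.69 (median 0.31), over 0.1 in 33 of 40 pairs, and each of the 17 samples correlated best with its own number. Not every pair passed 0.1, so the pairing is a hint from the data, and the block rests on the shared scan date. Few arrays limit the precision, and COX1 and COX3 were near background on set 3. In set 1 their percentiles overlapped those that the lost marker genes had over all arrays.

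Some changes that were uncalled in the main fit did not keep the sign they had there. Array weights gave -0.13 for ATP6 and -0.11 for ATP8 (ZnSO4 against untreated), 0.047 for COX1 (interaction of statin and CuSO4), 0.16 for COX3 and 0.18 for ATP8 (interaction of statin and ZnSO4), 0.073 for ATP8 (statin + ZnSO4 against statin) and -0.040 for COB (statin against untreated). The first array of each sample gave -0.039 for ATP6 and -0.017 for ATP8 (ZnSO4 against untreated) and 0.047 for COX3 (interaction of statin and ZnSO4). Median centring gave 0.19 for OLI1 (CuSO4 against untreated), -0.29 for COX1 (interaction of statin and ZnSO4), -0.064 for COX3 and -0.20 for COX1 (statin + CuSO4 against statin) and -0.15 for COX3 and -0.069 for COX1 (statin + ZnSO4 against statin). Leaving out background subtraction gave -0.057 for ATP6 (ZnSO4 against untreated). The replicate block gave 0.13 for COX3 and 0.19 for ATP8 (interaction of statin and ZnSO4), 0.18 for COB (statin + ZnSO4 against ZnSO4) and 0.081 for COB and 0.22 for ATP8 (statin + ZnSO4 against statin). The block with array weights gave -0.027 for ATP6 (ZnSO4 against untreated), 0.20 for COX3 and 0.25 for ATP8 (interaction of statin and ZnSO4), 0.017 for COB (statin + CuSO4 against CuSO4), 0.0069 for COX1 and 0.056 for COB (statin + ZnSO4 against ZnSO4) and 0.077 for COB and 0.26 for ATP8 (statin + ZnSO4 against statin). The block with median centring gave 0.19 for OLI1 (CuSO4 against untreated), 0.13 for ATP8 (interaction of statin and ZnSO4), -0.064 for COX3 and -0.20 for COX1 (statin + CuSO4 against statin), 0.19 for COB (statin + ZnSO4 against ZnSO4) and 0.086 for COB and 0.25 for ATP8 (statin + ZnSO4 against statin). The block without set 3 gave 0.044 for COB (CuSO4 against untreated), -0.079 for ATP6 and -0.012 for ATP8 (ZnSO4 against untreated), 0.17 for COX3, 0.35 for ATP6 and 0.49 for ATP8 (interaction of statin and ZnSO4), -0.11 for COX3 (statin + CuSO4 against CuSO4), -0.050 for COX1 (statin + CuSO4 against statin), 0.22 for COX1 (statin + ZnSO4 against ZnSO4) and 0.073 for COB, 0.27 for ATP6 and 0.47 for ATP8 (statin + ZnSO4 against statin). The block with sample channel alone gave -0.0094 for ATP6 and -0.078 for ATP8 (ZnSO4 against untreated), -0.021 for COX1, 0.025 for ATP6 and 0.049 for ATP8 (interaction of statin and ZnSO4), -0.22 for COX1 (statin + CuSO4 against statin), 0.18 for COB (statin + ZnSO4 against ZnSO4) and 0.14 for COB and 0.015 for ATP6 (statin + ZnSO4 against statin). The block with scanner program's processed ratios gave -0.18 for ATP6 (ZnSO4 against untreated), 0.38 for COX3, 0.16 for ATP6 and 0.16 for ATP8 (interaction of statin and ZnSO4), -0.17 for COX1 (statin + CuSO4 against statin), 0.24 for COB (statin + ZnSO4 against ZnSO4) and 0.090 for COB and 0.23 for ATP8 (statin + ZnSO4 against statin). The sample channel alone gave -0.0094 for ATP6 and -0.078 for ATP8 (ZnSO4 against untreated), 0.37 for COX3, 0.18 for COB, 0.23 for ATP6 and 0.46 for ATP8 (interaction of statin and ZnSO4), -0.22 for COX1 (statin + CuSO4 against statin), 0.051 for COX3 and 0.44 for COB (statin + ZnSO4 against ZnSO4) and 0.39 for COB, 0.22 for ATP6 and 0.38 for ATP8 (statin + ZnSO4 against statin). The scanner program's ratios gave -0.18 for ATP6 (ZnSO4 against untreated), 0.046 for COX3 and -0.25 for COX1 (interaction of statin and ZnSO4), -0.17 for COX1 (statin + CuSO4 against statin) and -0.048 for COX1 (statin + ZnSO4 against statin). Leaving out set 3 gave 0.044 for COB (CuSO4 against untreated), -0.079 for ATP6 and -0.012 for ATP8 (ZnSO4 against untreated), -0.11 for COX3 (statin + CuSO4 against CuSO4), -0.050 for COX1 (statin + CuSO4 against statin) and -0.044 for COX3 (statin + ZnSO4 against statin).

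With each sample left out in turn from the fit without a block, the following changes took either sign. For CuSO4 against untreated the ranges were -0.17 to 0.34 for ATP6, -0.29 to 0.37 for ATP8, -0.51 to 0.38 for COB, -0.12 to 0.26 for COX1 and -0.61 to 0.32 for OLI1. For ZnSO4 against untreated the ranges were -0.25 to 0.27 for ATP6, -0.37 to 0.28 for ATP8, -0.28 to 0.56 for COB, -0.074 to 0.31 for COX1, -0.0051 to 0.33 for COX3 and -0.31 to 0.59 for OLI1. For interaction of statin and CuSO4 the ranges were -0.29 to 0.23 for COX1 and -0.13 to 0.98 for OLI1. For interaction of statin and ZnSO4 the ranges were -0.47 to 0.34 for ATP8, -0.19 to 0.33 for COX1, -0.25 to 0.21 for COX3 and -0.38 to 0.63 for OLI1. For statin + CuSO4 against CuSO4 the ranges were -0.58 to 0.30 for COB and -0.037 to 0.38 for COX3. For statin + CuSO4 against statin the ranges were -0.70 to 0.11 for ATP8, -0.17 to 0.35 for COX1, -0.012 to 0.45 for COX3 and -0.17 to 0.93 for OLI1. For statin + ZnSO4 against ZnSO4 the ranges were -0.51 to 0.32 for COB. For statin + ZnSO4 against statin the ranges were -0.45 to 0.36 for ATP8, -0.61 to 0.10 for COB, -0.048 to 0.48 for COX1, -0.068 to 0.39 for COX3 and -0.13 to 0.88 for OLI1. In the blocked fits with each sample left out, that OLI1 change ran from 0.49 to 1.16. For statin against untreated the ranges were -0.055 to 0.66 for COB and -0.098 to 0.91 for OLI1.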
